A study of Mus musculus with 139 samples.

Results

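Lungs of mice given 80 µg of multi-walled carbon nanotubes (MWCNT) were compared with lungs of mice given 120 µg of crocidolite asbestos, 1 month and 6 months after a single dose. Source labels, which name fibre, dose and month, picked out 29 of the 139 arrays of the series for this comparison. There were 8 MWCNT and 5 crocidolite mice at 1 month, and 8 of each at 6 months. Mice given the vehicle, dispersion medium (DM), 8 at each time, are shown as the background. The animals were males of a strain spelled C57BL/J6, obtained at 7 weeks of age and caged alone. Each received 50 µL by pharyngeal aspiration, a method in which the mouse inhales a drop set on the back of its tongue. DM is a phosphate-buffered saline with glucose, mouse serum albumin and a surfactant phospholipid. The MWCNT stock was dispersed in it by sonication, and crocidolite, an amphibole asbestos, by brief vortexing. The 2 fibres were thus given at different masses, and fibre, mass and dispersion cannot be told apart. Each array holds RNA of the lung tissue of 1 mouse, and differences are log2 values, 80 µg MWCNT minus crocidolite, so that a negative value is a gene lower with MWCNT.

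Durable fibres that reach the alveoli are taken up by macrophages, and fibres too long to be engulfed persist in the tissue. Airway epithelium answers type 2 inflammation with mucous cells, which secrete mucins and Clca1, and macrophages with genes such as Retnla, Mmp12 and Gpnmb. Epithelia also secrete or display proteins that bind microbes and particles, among them Dmbt1, a scavenger receptor protein that binds surfactant protein D, and Gp2, a membrane-anchored glycoprotein of pancreas and of the M cells that sample the gut. In whole tissue, fewer cells of a type and less RNA per cell cannot be told apart.

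The genes that differed at both times were Dmbt1, Gp2, Clca3b and Cdhr1. RefSeq promoters of 3 of these 4 genes were at hand (build GRCm38.p6, 250 bases before to 50 after the start of transcription, gene strand, 5′ to 3′). They are shown because these genes differed at both times. Their places are chr3:144849253-144849552 for Clca3b, chr7:119459223-119459522 for Gp2 and chr14:37098298-37098597 for Cdhr1, all on the minus strand. Capitals mark the matches to 4 motifs searched on both strands, none of which overlapped another.
Clca3b: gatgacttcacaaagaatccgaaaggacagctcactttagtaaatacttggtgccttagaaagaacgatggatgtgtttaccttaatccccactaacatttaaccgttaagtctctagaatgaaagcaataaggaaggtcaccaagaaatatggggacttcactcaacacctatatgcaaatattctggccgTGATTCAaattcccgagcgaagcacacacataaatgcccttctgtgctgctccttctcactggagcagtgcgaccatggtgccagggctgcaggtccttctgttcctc
Gp2: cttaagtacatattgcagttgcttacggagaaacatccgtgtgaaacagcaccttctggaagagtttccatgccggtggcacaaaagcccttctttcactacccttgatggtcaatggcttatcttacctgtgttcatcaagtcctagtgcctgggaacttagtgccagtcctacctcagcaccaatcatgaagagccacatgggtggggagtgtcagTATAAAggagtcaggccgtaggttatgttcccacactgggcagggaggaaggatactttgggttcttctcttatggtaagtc
Cdhr1: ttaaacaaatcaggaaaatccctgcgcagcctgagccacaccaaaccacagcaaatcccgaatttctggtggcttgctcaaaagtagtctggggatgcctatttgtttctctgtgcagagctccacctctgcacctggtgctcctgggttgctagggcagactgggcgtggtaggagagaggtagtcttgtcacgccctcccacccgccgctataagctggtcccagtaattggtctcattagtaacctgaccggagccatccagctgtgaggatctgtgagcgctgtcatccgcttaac
The Clca3b promoter held 1 match to TGANTCA, the AP-1 motif, beginning at base -58 from the start, and 7.81% of 32851 promoters held one. The Gp2 promoter held 1 TATAAA, the core of the TATA box, beginning at base -32, and 13.6% of promoters held one. No match was found in these windows to the STAT motifs, TTC and GAA with 3 bases between them (8.3% of promoters) or with 4 (6.95%), and the Cdhr1 window had none of the 4 motifs.

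All 45 arrays of the fibre and DM groups carried lung markers, with the surfactant gene Sftpc between 12.4 and 12.73, the club cell gene Scgb1a1 between 12.33 and 12.81 and Ager of type 1 alveolar cells between 9.89 and 11.69. Of the 5 crocidolite mice at 1 month, replicates 4 and 5 stood apart. Their median correlations with the other arrays were 0.955 and 0.965, against 0.979 to 0.984 in the other 3, and their means over 19 endothelial genes were 8.32 and 8.33, against 8.84 to 9.28. Only replicate 4 fell under the limit used for low correlation, 0.961. The lowest DM array at 1 month was at 0.969. Skeletal muscle or squamous epithelium genes were high in 5 of the 29 arrays (1 of 8 MWCNT mice at each time, 3 of 8 crocidolite mice at 6 months and none of 5 at 1 month). They were also high in 3 of 8 DM arrays at 1 month and 0 of 8 at 6 months. An unexplained word, replacement, stood in the titles of 3 of 8 MWCNT and 3 of 5 crocidolite arrays at 1 month and of 2 and 0 arrays at 6 months. Among DM arrays, 4 of 8 had the word at 1 month and 1 of 8 at 6 months.

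At 1 month, 20 of 22180 genes differed between the fibres at a Benjamini-Hochberg adjusted p under 0.05 in limma (0.0902% of genes), 8 higher with MWCNT (0.0361%) and 12 lower (0.0541%). At 6 months 6 genes differed (0.0271%), with 0 higher (0%) and 6 lower (0.0271%). At an unadjusted p under 0.05 the counts were 2270 and 1029 genes. The median difference over all genes was 0.015 at 1 month and 0.025 at 6 months. Of the 22 genes called at either time, 4 were called at both. Against DM, 80 µg MWCNT had 374 genes higher and 24 lower at 1 month (1.69% and 0.108%, together 1.79%), and crocidolite had 649 and 628 (2.93% and 2.83%, together 5.76%). The crocidolite split was 252 higher and 16 lower without replicates 4 and 5, and 558 and 180 without replicate 4 alone. At 6 months the counts against DM were 178 higher and 29 lower for MWCNT (0.803% and 0.131%, together 0.933%), and 321 and 495 for crocidolite (1.45% and 2.23%, together 3.68%). In each of the 22 genes called between the fibres, at the time or times of the call, the crocidolite mean lay farther from the DM mean than the MWCNT mean did. The same fibre mice had picked these genes, and the share over all genes was not counted, so this is a description only.

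The 4 genes called at both times were all lower with MWCNT than with crocidolite. Dmbt1 was 5.93-fold lower at 1 month and 9.45-fold lower at 6 months, Gp2 2.90-fold and 4.40-fold, Clca3b 3.09-fold and 2.60-fold, and Cdhr1 2.59-fold and 2.44-fold. In MWCNT lungs Dmbt1 and Clca3b were not called against DM at either time, whereas Gp2 was raised by both fibres. The expression of each gene by mouse is plotted for the 3 treatments.

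**Figure D1:**
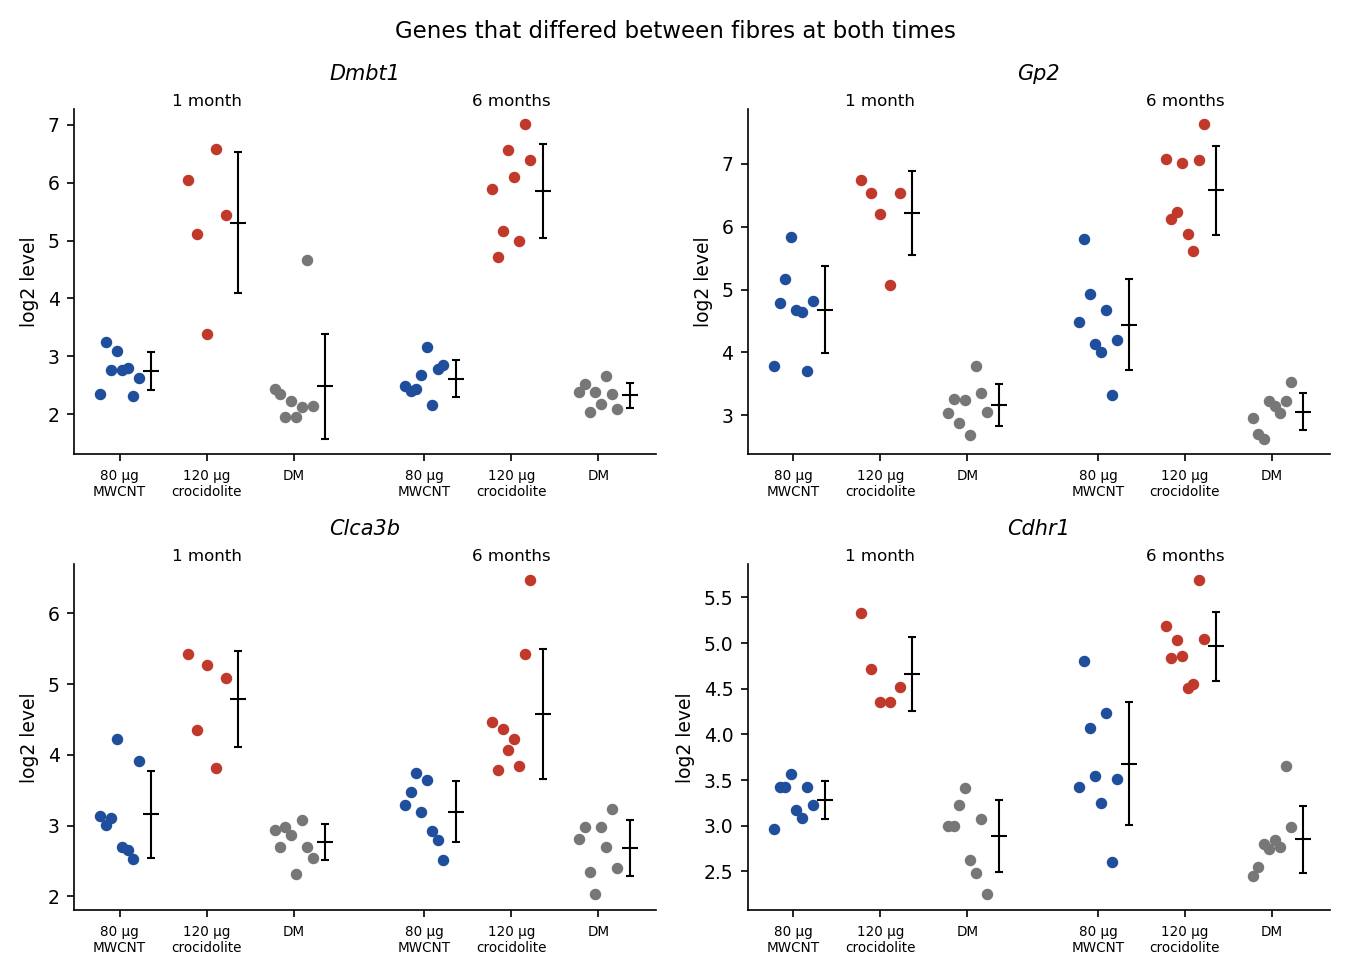
Log2 level of Dmbt1, Gp2, Clca3b and Cdhr1 in each mouse (points) given 80 µg MWCNT, 120 µg crocidolite or DM, at 1 and 6 months, with the group mean and SD as a black bar. All 8 crocidolite mice lay above all 8 MWCNT mice for Dmbt1 and Clca3b at 6 months, and all 5 above all 8 for Dmbt1 and Cdhr1 at 1 month.

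Dmbt1, the secreted scavenger receptor protein named above, had log2 levels of 2.31 at the lowest, 2.76 at the median and 3.24 at the highest in MWCNT lungs at 1 month. In crocidolite lungs the 5 values were 6.04, 5.12, 3.38, 6.58 and 5.44, and in DM lungs 1.95, 2.18 and 4.67 (lowest, median and highest). Replicate 3 was the lowest crocidolite mouse and still stood above every MWCNT mouse, and 1 DM mouse was high. The difference was -2.57 ± 0.32 (SE; 95% interval -3.19 to -1.95, adjusted p = 6.93e-09). This SE rests on 1 spread shared by all 18 groups, and the SD was 1.22 with crocidolite and 0.32 with MWCNT.
At 6 months Dmbt1 was at 2.15, 2.58 and 3.16 with MWCNT, at 4.72, 6.0 and 7.01 with crocidolite and at 2.04, 2.36 and 2.66 with DM. The fibre groups did not overlap, and MWCNT lay within 0.29 ± 0.28 (SE) of DM on average (95% interval -0.26 to 0.84, adjusted p = 0.906). The difference between fibres was -3.24 ± 0.28 (adjusted p = 1.51e-17). Against DM, crocidolite raised Dmbt1 by 2.83 ± 0.32 at 1 month and 3.53 ± 0.28 at 6 months, while MWCNT gave 0.26 ± 0.28 at 1 month (adjusted p = 0.855).

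Gp2, the M cell and pancreatic glycoprotein, was at 3.71, 4.73 and 5.84 (lowest, median and highest) in MWCNT lungs at 1 month. Crocidolite lungs had 6.74, 6.53, 6.21, 5.08 and 6.53, and DM lungs 2.69, 3.15 and 3.79. The fibre groups overlapped through crocidolite replicate 4, and the other 4 crocidolite mice exceeded all MWCNT mice. The difference was -1.54 ± 0.30 (SE; adjusted p = 0.00591). The call was lost without MWCNT replicate 1 (-1.41, adjusted p = 0.0519) or without crocidolite replicate 5 (-1.46, adjusted p = 0.0747).
At 6 months Gp2 was at 3.33, 4.34 and 5.80 with MWCNT, 5.62, 6.62 and 7.63 with crocidolite and 2.63, 3.09 and 3.53 with DM. One MWCNT mouse reached the crocidolite range, and 7 of 8 crocidolite mice lay above all MWCNT mice. The difference was -2.14 ± 0.26 (adjusted p = 3.92e-09) and was called whichever of the 16 mice was left out. Unlike Dmbt1, Gp2 rose with MWCNT against DM, by 1.52 ± 0.26 at 1 month (adjusted p = 1.88e-05) and 1.39 ± 0.26 at 6 months (adjusted p = 0.000421). With crocidolite it rose by 3.06 ± 0.30 and 3.52 ± 0.26.

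Clca3b belongs to the family of calcium-activated chloride channel regulators. At 1 month it was at 2.53, 3.06 and 4.23 in MWCNT lungs, at 5.42, 4.35, 5.27, 3.82 and 5.08 in crocidolite lungs and at 2.31, 2.79 and 3.08 in DM lungs. Crocidolite replicate 4 fell within the MWCNT range, and the other 4 crocidolite mice were above it. The difference was -1.63 ± 0.26 (SE; adjusted p = 7.48e-05).
At 6 months Clca3b was at 2.52, 3.24 and 3.74 with MWCNT, 3.78, 4.29 and 6.47 with crocidolite and 2.03, 2.76 and 3.24 with DM. The highest MWCNT mouse lay just under the lowest crocidolite mouse. The difference was -1.38 ± 0.23 (adjusted p = 8.16e-05). MWCNT differed from DM by 0.39 ± 0.23 at 1 month (adjusted p = 0.607) and by 0.51 ± 0.23 at 6 months (adjusted p = 0.471), and crocidolite by 2.02 ± 0.26 and 1.89 ± 0.23.

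Clca3b lies on chromosome 3 with 7 other Clca genes measured here, which were looked at after its values were seen and are given without a test. Clca1, the mucous cell secretory protein of the family, averaged 11.26 ± 0.38 (SD) in MWCNT lungs and 10.68 ± 0.43 in crocidolite lungs at 1 month, against 4.90 ± 1.42 in DM lungs. At 6 months Clca1 averaged 9.21 ± 2.51, 8.83 ± 0.92 and 4.03 ± 0.97 in the same order. Clca1 was high on average with either fibre, though MWCNT replicate 7 at 6 months was at 3.71. Clca3b was called against DM in the crocidolite groups and not in the MWCNT groups. Clca3a2 was the only other member below -0.4 at both times, with -0.77 ± 0.26 (SE) at 1 month and -0.49 ± 0.23 at 6 months. Against DM, Clca3a2 also lay higher with crocidolite, by 0.95 ± 0.26 at 1 month and 0.65 ± 0.23 at 6 months. With MWCNT it differed from DM by 0.17 ± 0.23 and 0.16 ± 0.23. The remaining 5 (Clca2, Clca3a1, Clca4a, Clca4b and the pseudogene Clca4c-ps) lay between -0.38 and 0.25 between the fibres. Related sequences can share probes, so how far the features of this family are separate was not tested.

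Cdhr1 encodes a cadherin known from photoreceptors. At 1 month it was at 2.96, 3.33 and 3.57 in MWCNT lungs, at 5.33, 4.72, 4.36, 4.36 and 4.52 in crocidolite lungs and at 2.25, 3.0 and 3.41 in DM lungs. All 5 crocidolite mice were above all 8 MWCNT mice, and the difference was -1.37 ± 0.23 (SE; adjusted p = 9.85e-05).
At 6 months Cdhr1 was at 2.60, 3.53 and 4.80 with MWCNT, 4.51, 4.94 and 5.69 with crocidolite and 2.45, 2.79 and 3.66 with DM. The groups overlapped through 1 high MWCNT mouse, and the difference was -1.29 ± 0.20 (adjusted p = 1.24e-05). Against DM, MWCNT raised Cdhr1 at 6 months by 0.83 ± 0.20 (adjusted p = 0.0106), and at 1 month the difference was 0.40 ± 0.20 (adjusted p = 0.470). Crocidolite raised it by 1.77 ± 0.23 and 2.11 ± 0.20.

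Dmbt1, Clca3b and Cdhr1 were called at 1 month in all 13 fits that left out 1 mouse of the fibre groups, and Gp2 in 11. At 6 months all 4 were called in all 16 such fits. Without crocidolite replicates 4 and 5 the 1-month differences were -2.10 for Dmbt1, -1.81 for Gp2, -1.85 for Clca3b and -1.52 for Cdhr1, with the 4 genes still called and no other gene called. Among the 3 MWCNT and 3 crocidolite arrays with the word replacement, the differences were -2.76, -1.61, -1.80 and -1.44, and no gene was called (Dmbt1 adjusted p = 0.227). In MWCNT lungs the means of the 4 genes were low, under the median level of the genes on these arrays, and fold changes are those of the deposited log2 scale.

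The lower MWCNT doses place these levels. At 1 month Gp2 averaged 3.16 ± 0.33 (SD) in DM lungs, 3.46 ± 0.39, 4.17 ± 0.48, 4.44 ± 0.23 and 4.68 ± 0.69 at 1, 10, 40 and 80 µg MWCNT, and 6.22 ± 0.66 with crocidolite. Dmbt1 at 1 month averaged 2.48 ± 0.90 in DM lungs and 2.40 ± 0.45, 2.28 ± 0.24, 2.75 ± 0.32 and 2.74 ± 0.32 at the 4 doses, against 5.31 ± 1.22 with crocidolite. The group means of Gp2 were in the order of dose, those of Dmbt1 were not, and no trend was tested. At 12 months Dmbt1 was at 2.03, 3.0 and 3.60 (lowest, median and highest) in 8 MWCNT lungs and at 5.91, 7.14 and 7.85 in 7 crocidolite lungs.

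**Figure D2:**
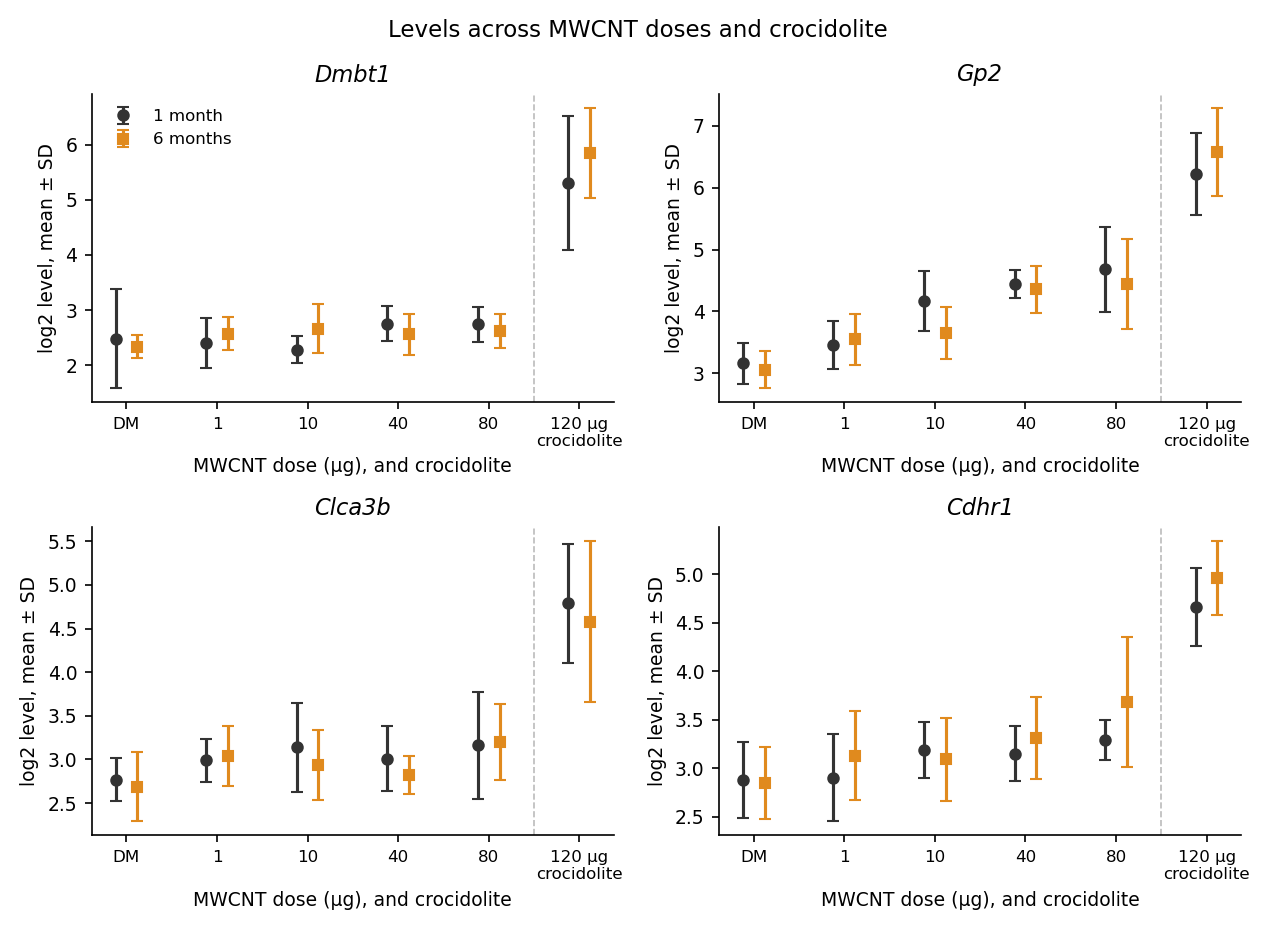
Mean log2 level with SD of Dmbt1, Gp2, Clca3b and Cdhr1 for DM, the MWCNT doses in µg and crocidolite, at 1 month (circles) and 6 months (squares). Every MWCNT mean of these 4 genes lies below the crocidolite mean of the same time, and Gp2 at 1 month steps up from 3.46 at 1 µg to 4.68 at 80 µg.

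Slco1a5, an organic anion transporter, was called at 6 months. It was at 4.51, 5.04 and 5.35 in MWCNT lungs, at 5.24, 5.99 and 6.19 in crocidolite lungs and at 4.0, 4.18 and 4.53 in DM lungs. The fibre groups overlapped through 1 mouse of each, and the difference was -0.92 ± 0.15 (SE; adjusted p = 8.16e-05). At 1 month it was -0.40 ± 0.17 (95% interval -0.74 to -0.06, adjusted p = 0.407). Both fibres raised Slco1a5 against DM, MWCNT by 0.59 ± 0.15 and 0.74 ± 0.15 at 1 and 6 months and crocidolite by 0.99 ± 0.17 and 1.65 ± 0.15. The sixth gene at 6 months was Olfr1445, an olfactory receptor outside the rule for named genes and named after its values were seen. It was at 1.13, 1.67 and 2.14 with MWCNT and at 2.03, 2.70 and 3.14 with crocidolite, a difference of -0.95 ± 0.20 (adjusted p = 0.0115) that was called in 11 of 16 fits leaving out 1 mouse.

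A further 8 genes were lower with MWCNT at 1 month, by 0.62 to 1.46 on the log2 scale. B3gnt7, a glycosyltransferase of keratan sulfate, was at 4.29, 4.84 and 5.48 in MWCNT lungs and at 5.54, 5.53, 4.99, 5.55 and 6.48 in crocidolite lungs, against 3.92, 4.28 and 4.38 in DM lungs. Only crocidolite replicate 3 lay within the MWCNT range, and the difference was -0.80 ± 0.18 (SE; adjusted p = 0.0335). B3gnt7 also rose with MWCNT against DM, by 0.60 ± 0.16 (adjusted p = 0.0165).
Rbp4, the plasma carrier of retinol, was at 6.03, 6.14 and 6.92 with MWCNT and at 7.23, 6.40, 6.34, 7.76 and 7.96 with crocidolite. Replicates 1, 4 and 5 were the high ones, and the difference was -0.90 ± 0.21 (adjusted p = 0.0492). Bex1, a small adaptor protein known from neurons, had the widest spread, 3.07, 3.66 and 5.26 with MWCNT and 6.2, 4.17, 4.55, 5.71 and 5.96 with crocidolite, and differed by -1.46 ± 0.35 (adjusted p = 0.0492).
Krt20, a keratin of gut epithelium, differed by -0.89 ± 0.19 and Creg2, a secreted glycoprotein, by -0.85 ± 0.19 (adjusted p = 0.0330 each). Car6, the carbonic anhydrase of saliva, differed by -0.72 ± 0.16, the metalloprotease Mep1b by -0.62 ± 0.15 and the annexin Anxa10 by -0.62 ± 0.14. Of the 12 lower genes at 1 month, 11 were also called higher with crocidolite than with DM, beside 2.93% of all genes. The same crocidolite mice had picked these genes, so this count is no independent evidence. The exception was Anxa10, at 1.80, 1.88 and 2.10 with MWCNT, 2.94, 2.23, 2.45, 2.68 and 2.35 with crocidolite and 1.84, 2.17 and 2.52 with DM, where crocidolite gave 0.38 ± 0.14 against DM (adjusted p = 0.0930). Of the 11, 5 lost that call without crocidolite replicates 4 and 5: Bex1 (adjusted p = 0.0654), Rbp4 (0.424), Krt20 (0.221), Car6 (0.124) and Mep1b (0.243). All 12 but Rbp4 had a mean under 5 over all mice, and each of these 8 was called in 3 to 7 of the 13 fits that left out a mouse.
At 6 months none of the 8 was called, with differences between -0.51 for Krt20 and 0.04 for B3gnt7. The change of the difference between the times was not called for any of the 8 (B3gnt7 0.84 ± 0.24, adjusted p = 1). Without crocidolite replicates 4 and 5 all 8 remained below 0 at 1 month and none was called, with Rbp4 at -0.42 ± 0.24 and Bex1 at -1.12 ± 0.41.

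At 1 month 8 genes were higher with MWCNT. All 8 were called lower with crocidolite than with DM, beside 2.83% of all genes. None was called between MWCNT and DM, beside 1.79% of all genes. The same crocidolite and MWCNT mice had picked these genes, so these counts are no independent evidence. Gria1 alone was still called against DM without crocidolite replicates 4 and 5 (-0.83 ± 0.20 SE, adjusted p = 0.00804), and the other 7 had adjusted p-values of 0.0874 (Ednrb) to 0.706 (Fam13a). Ednrb, the endothelin B receptor of lung endothelium, was at 9.04, 9.30 and 9.54 in MWCNT lungs, at 8.68, 9.45, 9.40, 7.24 and 8.11 in crocidolite lungs and at 9.51, 9.67 and 10.07 in DM lungs. Crocidolite replicates 4 and 5 were the lowest and replicates 2 and 3 lay within the MWCNT range. The difference was 0.72 ± 0.17 (SE; adjusted p = 0.0492).
Cyp2f2, the cytochrome P450 of club cells, was at 12.18, 12.38 and 12.61 with MWCNT, at 12.08, 12.32, 12.46, 11.46 and 11.38 with crocidolite and at 12.37, 12.57 and 12.70 with DM. Again replicates 4 and 5 were the lowest, and the difference was 0.44 ± 0.09 (adjusted p = 0.0163). Fmo2, the flavin monooxygenase of lung, was at 10.75, 10.98 and 11.17 with MWCNT and at 10.73, 11.09, 11.05, 9.98 and 9.75 with crocidolite, a difference of 0.44 ± 0.10 (adjusted p = 0.0492).
Gria1, a glutamate receptor subunit, was at 5.35, 5.72 and 6.21 with MWCNT and at 4.86, 5.58, 5.61, 3.96 and 4.60 with crocidolite, a difference of 0.81 ± 0.18 (adjusted p = 0.0330). Bmp6, a ligand of the TGF-beta family, was at 8.48, 8.87 and 9.07 with MWCNT and at 7.94, 9.04, 8.85, 7.47 and 7.54 with crocidolite, and differed by 0.69 ± 0.16 (adjusted p = 0.0492). For these 2 genes replicates 1, 4 and 5 fell below all MWCNT mice.
Cnksr2, a scaffold protein of Ras signalling, was the one gene of the 8 whose groups did not overlap. It was at 5.18, 5.59 and 5.99 with MWCNT, 5.04, 5.03, 5.13, 3.95 and 4.61 with crocidolite and 5.01, 5.64 and 6.14 with DM, and differed by 0.87 ± 0.21 (adjusted p = 0.0492). The lowest MWCNT mouse (5.18) lay just above the highest crocidolite mouse (5.13). The same mice had picked the 8 genes, and how many of all genes did not overlap was not counted. Esyt3, a tether between the endoplasmic reticulum and the plasma membrane, differed by 0.70 ± 0.16 and Fam13a by 0.61 ± 0.14 (adjusted p = 0.0492 each).

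**Figure D3:**
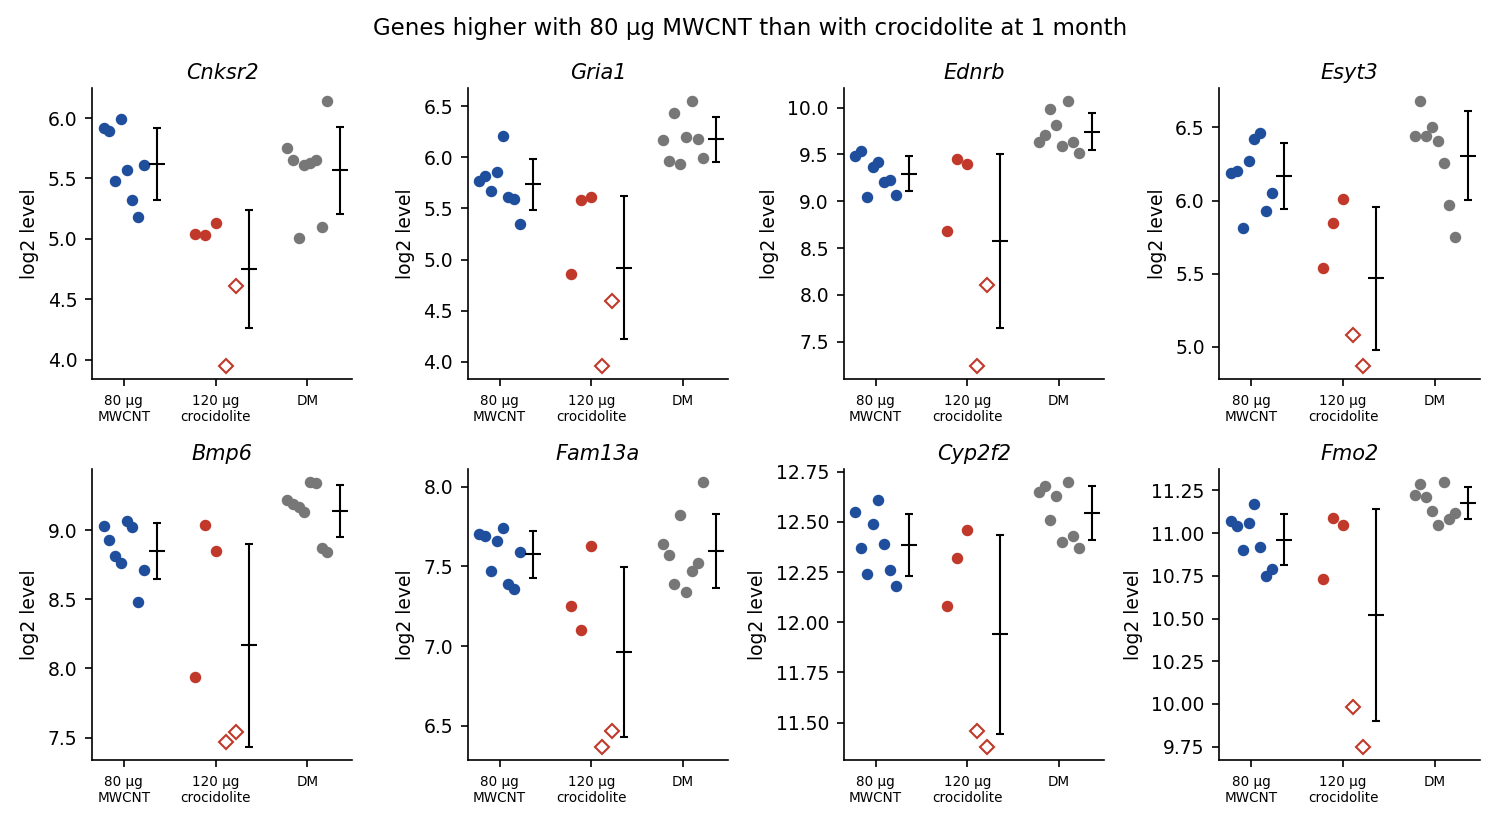
Log2 level of the 8 genes called higher with 80 µg MWCNT than with crocidolite at 1 month, in each mouse, with mean and SD as a black bar. Open diamonds are crocidolite replicates 4 and 5, which are the 2 lowest crocidolite mice in all 8 panels.

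None of the 8 genes was called without crocidolite replicate 4, without crocidolite replicate 5, or without MWCNT replicate 1, 4 or 5. Without both of these crocidolite mice, Ednrb differed by 0.12 ± 0.17 (SE; 95% interval -0.22 to 0.46), Fmo2 by 0.01 ± 0.10, Cyp2f2 by 0.10 ± 0.09, Bmp6 by 0.25 ± 0.17 and Gria1 by 0.39 ± 0.20. Cnksr2 kept the largest of the 8 differences, 0.55 ± 0.24 (95% interval 0.08 to 1.03, adjusted p = 1). At 6 months, where 8 crocidolite mice were measured, none was called, and Cnksr2 had the largest difference, 0.46 ± 0.18 (adjusted p = 0.961).

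The panel of 14 fibre-response genes, taken from what earlier analysis of these arrays had shown, was mostly raised against DM with either fibre. Against DM, 12 of 14 were higher with MWCNT and 13 with crocidolite at 1 month, beside 1.69% and 2.93% of all genes. At 6 months 10 were higher with each fibre, beside 0.803% and 1.45% of all genes. The panel was picked because its genes had responded in these arrays, so these counts are no independent evidence. Between the fibres only Dmbt1 and Gp2 were called, at either time. At 1 month 13 of the 14 lay below 0, with a panel median of -0.55 beside 0.015 over all genes. At 6 months 7 lay below 0, with a panel median of -0.08 beside 0.025. The MWCNT and crocidolite comparisons share the DM mice.
Clca1 differed between the fibres by 0.59 at 1 month (95% interval -0.84 to 2.02) and by 0.38 at 6 months (-0.88 to 1.64). Retnla, a secreted protein of alternatively activated macrophages, differed by -0.07 (-0.75 to 0.62) and -0.63 (-1.24 to -0.03). For the macrophage elastase Mmp12 the values were -0.35 (-1.14 to 0.44) and -0.81 (-1.50 to -0.11), and for Gpnmb, a glycoprotein of lipid-laden macrophages, -0.60 (-1.31 to 0.11) and -0.56 (-1.19 to 0.06). Adjusted p-values of these 8 differences were between 0.565 and 0.972. In each of the 4 genes an interval reached past a 2-fold difference, so equal responses were not shown.
Col1a1, a chain of fibrillar collagen, gave narrower intervals, -0.06 (-0.44 to 0.32) at 1 month and 0.07 (-0.27 to 0.40) at 6 months, and was not called for either fibre against DM. The protease inhibitor Timp1 differed by -0.14 (-0.60 to 0.31) and 0.26 (-0.14 to 0.65), the lipid receptor Trem2 by -0.36 (-0.90 to 0.19) and 0.22 (-0.25 to 0.70) and the collagen-degrading protease Ctsk by -0.53 (-1.11 to 0.05) and -0.22 (-0.73 to 0.28). Chil4, a chitinase-like protein, had wide intervals, as Clca1 did, with -0.58 (-1.88 to 0.72) and -0.38 (-1.52 to 0.76).
Several of these values moved when mice were left out. The 1-month difference without crocidolite replicates 4 and 5 was -0.19 for Gpnmb, 0.01 for Ctsk, -0.05 for Trem2, -0.15 for Mmp12 and 0.39 for Clca1. Without MWCNT replicate 2 the 6-month difference was 0.02 for Clca1 (95% interval -1.26 to 1.30) and -1.10 for Chil4 (-2.18 to -0.01). It was -0.40 for Ctsk, 0.04 for Timp1 and 0.06 for Trem2. Retnla widened in that fit to -0.92 (-1.51 to -0.32). Mmp12 widened to -0.99 (-1.70 to -0.28) and Gpnmb to -0.72 (-1.35 to -0.08). None of these was called in either case. MWCNT replicate 2 was left out because it stood apart in several genes. For Clca1 at 6 months the mouse that stood apart was MWCNT replicate 7 (3.71, next lowest 8.38), which that fit keeps.

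**Figure D4:**
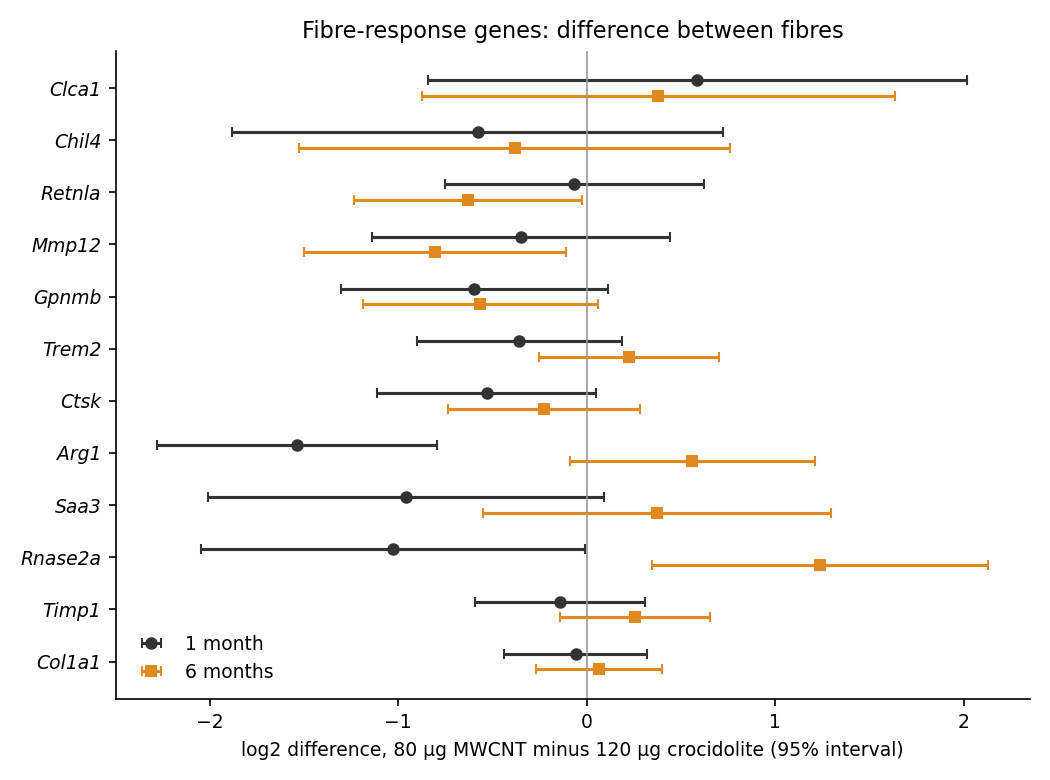
Difference in log2 level, 80 µg MWCNT minus 120 µg crocidolite, with its 95% interval, for 12 genes of the panel at 1 month (circles) and 6 months (squares). None of these 12 was called at either time. Arg1, Rnase2a, Saa3, Timp1, Trem2 and Col1a1 lie below 0 at 1 month and above 0 at 6 months.

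Arg1, Rnase2a and Saa3 had differences below 0 at 1 month and above 0 at 6 months, none of them called. So did Timp1, Trem2 and Col1a1, with the smaller values given above. Arg1, the arginase of alternatively activated macrophages, was at 4.29, 5.42 and 8.34 in MWCNT lungs and at 7.28, 5.90, 5.97, 8.0 and 8.97 in crocidolite lungs at 1 month, a difference of -1.54 ± 0.38 (SE; adjusted p = 0.0542). The groups overlapped through 2 MWCNT mice, and without crocidolite replicates 4 and 5 the difference was -0.70 ± 0.42 (adjusted p = 1). At 6 months Arg1 was at 3.82, 4.23 and 8.92 with MWCNT and at 3.80, 4.27 and 4.71 with crocidolite, a difference of 0.56 ± 0.33 (adjusted p = 0.961) that was -0.02 ± 0.28 without MWCNT replicate 2.
Rnase2a, an eosinophil-associated ribonuclease, differed by -1.03 ± 0.51 at 1 month and 1.24 ± 0.45 at 6 months (0.59 ± 0.41 without that mouse). Saa3, an acute phase protein, differed by -0.96 ± 0.53 and 0.37 ± 0.47 (-0.15 ± 0.45 without it). Without crocidolite replicates 4 and 5 the 1-month difference turned to 0.24 ± 0.60 for Saa3 and was -0.91 ± 0.61 for Rnase2a. The change between the times was 2.10 ± 0.50 for Arg1 (adjusted p = 0.362), 2.27 ± 0.68 for Rnase2a and 1.33 ± 0.71 for Saa3 (adjusted p = 1 for both). Over all 22180 genes limma called 0 such changes (0%), with 612 genes at an unadjusted p under 0.05.

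Gene lists for 50 cell types and pathways (648 genes measured) held few calls. At 1 month 6 lists had a called gene and 44 had none, and at 6 months 1 list had any. Mucosal defence proteins, a list drawn up with Dmbt1 and Gp2 already known, had these 2 of 14 genes lower with MWCNT at both times and no other. Of all genes, 0.0541% were called lower at 1 month and 0.0271% at 6 months. The next member by size, the iron-binding protein Ltf, differed by -1.47 at 1 month (adjusted p = 0.0642) and -1.06 at 6 months (adjusted p = 0.751). Against DM the list had 7 of 14 higher with MWCNT and 8 with crocidolite at either time, beside 1.69% and 2.93% of all genes at 1 month and 0.803% and 1.45% at 6 months.
The other called list members were all higher with MWCNT at 1 month: Bmp6 (1 of 20 in the TGF-beta family), Gria1 (1 of 14 in alveolar fibroblasts), Ednrb (1 of 19 in endothelium), Cyp2f2 (1 of 12 in club cells), and Cyp2f2 and Fmo2 (2 of 14 in esterases and xenobiotic metabolism). Of all genes, 0.0361% were called higher at 1 month. As the background for counts above or below 0, 47.3% of all genes lay below 0 at 1 month and 42.7% at 6 months. For endothelium the median difference was 0.29 at 1 month with 18 of 19 genes above 0, beside 0.015 over all genes. Without crocidolite replicates 4 and 5 it was 0.05, with 12 of 19 above 0. Against DM at 1 month no endothelial gene was called with MWCNT and 11 were lower with crocidolite, beside 0.108% and 2.83% of all genes, and the 11 became 0 without those 2 mice. At 6 months, where the crocidolite group has 8 mice, the counts against DM were 0 with MWCNT and 14 lower with crocidolite, beside 0.131% and 2.23% of all genes. The median difference between the fibres was 0.15 with 18 of 19 above 0 and 0 called.
Mesothelial genes such as Msln and Upk3b were all above 0, 11 of 11 at both times, with medians of 0.47 and 0.35 and 0 called. Their 1-month median without the 2 mice was 0.30, and these genes are carried by the lining of the lung, whose share in the tissue taken was not measured. All 11 smooth muscle genes were also above 0 at both times (medians 0.30 and 0.21), and 3 of 11 fell below 0 at 1 month without the 2 mice. For lipid-laden macrophages 17 of 19 genes were below 0 at 1 month (median -0.31), against 9 of 19 at 6 months (median 0.07), and without the 2 mice the 1-month count was 11 of 19 (median -0.05). Mucous cell genes were called in 10 of 14 against DM with either fibre at 1 month, and in 9 with MWCNT and 10 with crocidolite at 6 months, each beside the shares of all genes given for mucosal defence. Between the fibres none was called, with medians of -0.09 and 0.14. The 16 collagens had no call and medians of -0.05 and 0.10.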

How the data were processed

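Male mouse lungs were profiled on 139 Affymetrix arrays, with 1 column per array in the deposited table. The values are on a log2 scale as deposited. The submitters' processing notes name oligo, RMA and limma. Versions, roles and a genome build were not given in the sources used here. Values ran from -0.05 to 13.276, with array medians of 4.009 to 4.336. Features with a single gene symbol (23521 of 41345) were kept, named from the platform annotation and checked against RefSeq records of GRCm38.p6, where 23328 matched. The feature with the highest mean was used for each of 22180 genes. Mouse 101 had 2 arrays, which were averaged, giving 138 mice in 18 groups. Other replicates are separately numbered mice.

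A linear model with a mean per group was fitted to all mice in limma 3.58.1 (R 4.3.3; 120 residual degrees of freedom, empirical Bayes). Every adjusted p is from this two-sided test with Benjamini-Hochberg adjustment over 22180 genes, called under 0.05. Intervals are 95% intervals of the fitted contrast, errors of differences are SE and errors of levels SD. In the main fit each gene has 1 spread shared by all 18 groups, on which SE, intervals and p-values rest. Some genes varied more in the crocidolite mice at 1 month. Ednrb had an SD of 0.93 there and 0.19 with MWCNT, while Gp2 had 0.66 and 0.69. The SE and p-value do not measure the spread of that group alone. The number of arrays limits the precision. The fit was checked on simulated data drawn with 1 spread per gene for all groups. Groups of unequal spread were not simulated, so that check does not cover them. Motifs were searched as spelled, on both strands.

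Named genes are the 12 highest and 12 lowest genes called in each fibre comparison, passing over predicted genes and olfactory receptors, up to 2 called genes per list, and a panel of 14. The members, the panel and the lists were chosen with earlier results of these data known. Alternatives were other scalings, moderation, weights, filters, feature choice and subsets of arrays. Leaving out both crocidolite arrays of lowest correlation at 1 month was added after seeing the data. Figures were drawn with matplotlib 3.10.9.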

Additional observations from a re-analysis of the deposited data

Results flagged for a closer look

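A mouse stood outside the other mice of its group in 16 of 204 pairs of a named gene and a group looked at (7.84%), by Dixon's test at the 95% level, which marks about 1 in 20 groups by chance. No explanation was tested. Of these, 8 were replicate 2 of the 80 µg MWCNT mice at 6 months. That mouse was the highest of its group in Arg1 (8.92, next 4.76), Rnase2a (8.08, next 4.42), Saa3 (9.50, next 6.54), Bex1 (5.90, next 3.75) and Rbp4 (7.58, next 6.40). It was the lowest in Ednrb (8.41, next 9.21), Cyp2f2 (12.28, next 12.54) and Fmo2 (10.65, next 11.06). Its title carries the word replacement.

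Among other fibre mice, Rbp4 was at 6.92 in 80 µg MWCNT replicate 7 at 1 month, Clca1 at 3.71 in 80 µg MWCNT replicate 7 at 6 months, where the next lowest mouse was at 8.38, and Col1a1 at 9.59 in crocidolite replicate 4 at 1 month. Among DM mice, Dmbt1 was at 4.67 in replicate 7 at 1 month, with the next mouse at 2.43, and Cdhr1 at 3.66 in replicate 7 at 6 months. Replicate 3 at 1 month had Clca1 at 8.10 and Rnase2a at 4.08, and Clca1 was at 6.28 in replicate 4 at 6 months.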

How the results depend on the processing

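With 5 crocidolite mice at 1 month, the calls moved widely with the setting. Between the fibres at 1 month, 20 genes (0.0902% of those tested) were called. The count was 2 (0.00902%) in a fit of the 2 groups alone, 9 (0.0406%) with array weights or with the mean of a gene's features, 12 (0.0541%) with the word replacement as a covariate, 51 (0.23%) in arrays without the word and 0 in arrays with it. It was 5 (0.0225%) without arrays of low correlation, 4 (0.018%) without arrays high in muscle or squamous genes and 4 without crocidolite replicates 4 and 5. At 6 months (6 genes, 0.0271%) it was 10 (0.0451%) with array weights, 12 (0.0541%) without the word and 0 among genes with a mean of at least 5, which leaves out all 6. For the change between times (0 genes) it was 2 (0.00902%) with weights and 1 (0.00451%) without arrays of low correlation. Leaving out 1 mouse gave 0.0135% (3 genes, without MWCNT replicate 1 or crocidolite replicate 5) to 1.19% (without crocidolite replicate 2) at 1 month, where only MWCNT replicates 3 and 8 moved the count by less than 1.5 times. It gave 0.0225% to 0.0451% at 6 months (highest without crocidolite replicate 6) and 0% to 0.00902% for the change (highest without 1-month MWCNT replicate 7). Clca3b and Gp2 at 1 month were not called in the 2 groups alone (adjusted p = 0.401 and 0.620) or in arrays without the word (0.0600 and 0.0549), nor were Clca3b and Cdhr1 at 6 months in the 2 groups alone (0.440 and 0.166). Of the called genes at 1 month 40% were higher with MWCNT, and 13.3% with arrays centred on their medians and 31.2% with quantile normalization again. The split was 18 higher and 2 lower among genes with a mean of at least 5, and 173 and 90 without crocidolite replicate 2.

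Against DM, MWCNT at 1 month (1.79%) gave 2.84% with weights, 0.329% without and 0.667% with the word, and 1.41% to 1.89% leaving out a mouse. At 6 months (0.933%) it gave 0.108% in the groups alone, 2.33% with weights, 0.252% without the word, 0.595% without muscle or squamous arrays and 0.338% (without MWCNT replicate 2) to 1.3%; it also fell past 1.5 times without MWCNT replicate 6 (0.518%) or DM replicate 5 (0.6%). Crocidolite at 1 month (5.76%) gave 1.63% in the groups alone, 3.66% with weights, 1.73% without and 1.18% with the word, 3.51% without arrays of low correlation, 1.21% without replicates 4 and 5 (252 higher, 16 lower) and 2.83% (without replicate 5; 3.33% without replicate 4) to 7.61%. At 6 months (3.68%) it gave 7.15% with weights, 1.51% without muscle or squamous arrays and 2.23% (without replicate 8) to 4.04%. The share of higher genes at 6 months was 86% for MWCNT (72% centred, 75.7% quantile) and 39.3% for crocidolite (50.4% and 54.5%). The cause was not tested for any of these. No difference of a named gene past the test turned its direction under any alternative run. The fit of arrays with the word could not be made at 6 months, where no crocidolite array has it. No paired analysis was possible because the numbers given to replicates come from accession order alone. Low signal limits the genes called at both times, and 5 crocidolite mice limit 1 month.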
